A study of Homo sapiens with 2 samples.

Results

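The genes described here are 10 human genes of iron handling, chosen by name for their known roles: the ferritin genes FTH1 and FTL, the ferritin cargo receptor NCOA4, the importers TFRC and SLC39A14, the exporter SLC40A1, the iron-sensing RNA-binding proteins IREB2 and ACO1, the haem oxygenase HMOX1 and the siderophore-binding lipocalin LCN2. All 10 were found among 57110 gene entries, and they held 31 of the 99493 listed transcripts. They were measured in 1 single-cell nanopore library, read on a PromethION instrument, from 1 pool of established ovarian cancer lines; COV504, IGROV1 and SK-OV-3 each made up an equal part of the 3-line pool. The labels name no treatment, genotype or time, and the matched Illumina library gave only its list of 2462 barcodes, all of them shared with the nanopore list; its expression values were not analysed here. With 1 library there is no replicate of any line, so no test was possible, and every interval below is a 95% interval that covers counting error only.

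Ferritin is a hollow shell of heavy chains, encoded by FTH1, and light chains, encoded by FTL; the heavy chain oxidises iron so that it can enter, and the light chain helps the mineral core form. When cellular iron is low, the proteins encoded by IREB2 and ACO1 bind short hairpins called iron-responsive elements: binding in a 5′ untranslated region blocks translation, as for both ferritins, and binding in the 3′ untranslated region of TFRC protects the mRNA from decay. Counts of mRNA therefore do not give the amount of ferritin protein.

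These hairpins are shown first because the search described here matched FTH1, FTL, SLC40A1 and TFRC and no other gene of the list. The annotated transcripts (GENCODE release 29, GRCh38) were searched on their sense strand for a C, 5 stem bases, the loop CAGTGN, and 5 bases pairing with the stem, with G-T pairs allowed. Each 30-base window is written 5′ to 3′ as DNA letters with the loop in capitals. FTH1 held 1 match at chr11:61967573-61967602 on the minus strand, in 5 of its 6 listed transcripts, FTL 1 at chr19:48965335-48965364 on the plus strand, and SLC40A1 1 at chr2:189580660-189580689 on the minus strand, each in the 5′ untranslated region. TFRC held 4 matches in the 3′ untranslated region of all 3 of its transcripts, all on the minus strand, at chr3:196050978-196051007 (a), chr3:196050574-196050603 (b), chr3:196050509-196050538 (c) and chr3:196050462-196050491 (d).
FTH1: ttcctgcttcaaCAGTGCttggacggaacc
FTL: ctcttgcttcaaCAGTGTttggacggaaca
SLC40A1: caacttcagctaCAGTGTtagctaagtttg
TFRC a: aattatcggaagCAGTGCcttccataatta
TFRC b: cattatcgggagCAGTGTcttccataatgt
TFRC c: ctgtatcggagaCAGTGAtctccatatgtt
TFRC d: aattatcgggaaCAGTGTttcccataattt
The windows of FTH1 and FTL held the same base at 26 of 30 positions, pairs of TFRC windows at 19 to 25, and windows of FTH1 or FTL against those of TFRC at 9 to 13. No match was found in the other 6 genes. Of 10063 single-gene entries with at least 50 counts, 1.65% had a match in a listed transcript. A match describes letters in the annotation and not a measured binding site. The pattern is strict, so the number of matches, in TFRC as in any gene, is not a count of its iron-responsive elements.

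The lines were told apart by marker genes, since the files hold no cell labels. A barcode with at least 1000 counts was assigned where 1 of 3 marker sets held at least 75% of its counts of 10 marker genes: ERBB2, NNMT, TSPAN1 and DHRS2, or RARRES2 and TMEM100, or FOLR1, CLDN3, DEFB1 and CXCL14. This gave 648 ERBB2-high, 473 RARRES2-high and 765 FOLR1-high barcodes of 2462, with median totals of 4953, 6262 and 5289 counts. The lowest share inside the rule was 75% and the highest outside 73.9%, and 72 assigned barcodes rested on 1 marker count. The ERBB2-high barcodes are SK-OV-3-like: GRB7, MIEN1, STARD3 and PGAP3, neighbours of ERBB2, were highest there, and CDKN2A had 1 count there, against 0 in RARRES2-high and 88 in FOLR1-high. Of the IGROV1 markers, FOLR1 and CLDN3 belong to the rule and say nothing here. Of those outside it, CDH1 and ESRP1 were highest in RARRES2-high, at 45.0 and 8.88 CPM, and PAX8 in FOLR1-high, at 143 CPM against 101 in ERBB2-high and 95.03 in RARRES2-high, so those classes carry no line name. Of the immune, erythroid and endothelial markers looked for, PTPRC, CD3E, HBB, HBA1, HBA2, PECAM1 and VWF each had at most 8 counts in any line class, and CD68 had no entry of its own.

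Values are CPM, the counts of a gene pooled over the barcodes of a class per 1000000 counts of that class. The listed genes passed the 2-fold limit about as often as other genes did. A gene was compared when it had at least 50 counts over the 3 classes, which left out SLC40A1. Of the 9 compared, 4 were at least 2-fold apart between ERBB2-high and RARRES2-high, where 35.7% of all 10202 genes compared were. FTL and SLC39A14 were higher in ERBB2-high, as were 22.2% of all genes, and TFRC and LCN2 in RARRES2-high, as were 13.5%. Between ERBB2-high and FOLR1-high 3 of 9 passed, against 37.1% of all genes: FTH1, NCOA4 and LCN2 were higher in ERBB2-high (27.3% of all genes) and 0 in FOLR1-high (9.79%). Between RARRES2-high and FOLR1-high 4 of 9 passed, against 36.6%: FTH1, TFRC and LCN2 were higher in RARRES2-high (22.7%) and FTL in FOLR1-high (13.8%). These shares lie near those of all genes and are not a result about the list. The log2 ratio of the median gene was 0.22, 0.46 and 0.20 in these 3 comparisons, higher in the class named first each time, and the median over the 9 genes was 0.29, 0.82 and 0.38. With ratios centred on the median gene, the counts were 4, 0 and 4 of 9, against 33.8%, 31.9% and 35.5% of all genes. Mitochondrial genes held 2.93% of counts in ERBB2-high, 3.11% in RARRES2-high and 7.07% in FOLR1-high. For the listed genes, values centred on the median gene, or without mitochondrial and ribosomal protein genes in the denominator, are given where they change a call.

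**Figure D1:**
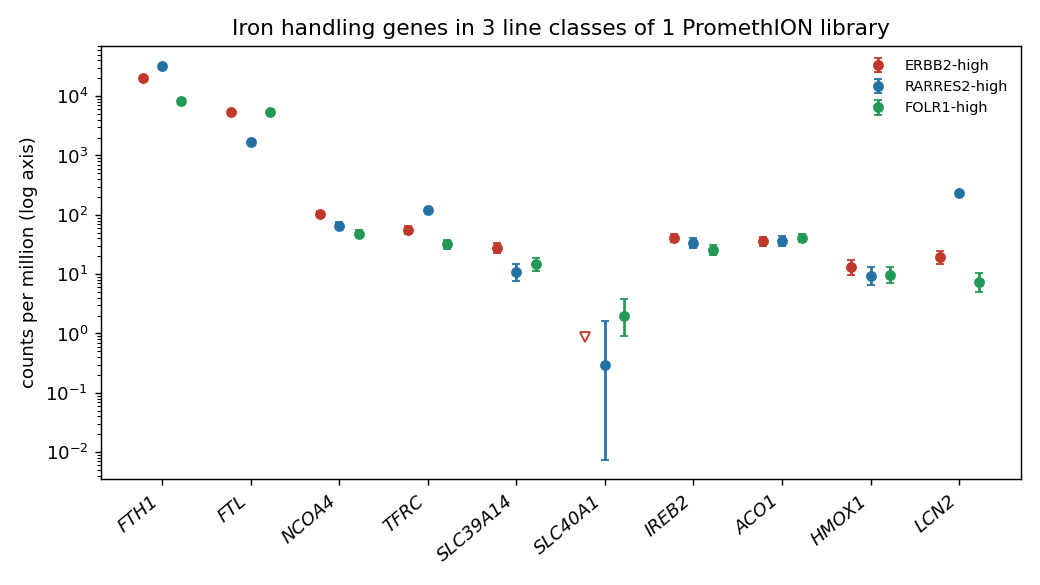
Level of each of the 10 genes (CPM, log axis) in the 3 line classes, with points for pooled counts, bars for exact Poisson intervals and an open triangle at the level of 3 counts where none was seen. FTH1, TFRC and LCN2 were highest in RARRES2-high and FTL was lowest there, while IREB2, ACO1 and HMOX1 stayed within 2-fold.

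The ferritin genes differed in opposite directions. FTH1, the heavy chain, stood at 32494 CPM (32302 to 32687) in RARRES2-high, 20410 CPM (20260 to 20562) in ERBB2-high and 8276 CPM (8192 to 8360) in FOLR1-high. FTL, the light chain, stood at 5437 CPM (5369 to 5506) in FOLR1-high, 5380 CPM (5303 to 5458) in ERBB2-high and 1676 CPM (1632 to 1720) in RARRES2-high. The class with the most FTH1 was thus the class with the least FTL. FTH1 was 3.93-fold (3.88 to 3.97) higher in RARRES2-high than in FOLR1-high, and FTL was 3.25-fold (3.15 to 3.34) higher in FOLR1-high than in RARRES2-high. Between ERBB2-high and RARRES2-high, FTL was 3.21-fold (3.12 to 3.31) higher in ERBB2-high, and FTH1 was 1.59-fold (1.58 to 1.61) higher in RARRES2-high, short of the 2-fold limit. Between ERBB2-high and FOLR1-high, FTL did not differ beyond counting error, at a ratio of 0.989 (0.971 to 1.01). FTH1 was 2.47-fold higher in ERBB2-high than in FOLR1-high, which became 1.92-fold without mitochondrial and ribosomal protein genes in the denominator and 1.80-fold when centred on the median gene. Of all genes compared, 23.5% had a larger spread over the 3 classes than FTH1, and 29.4% a larger spread than FTL.

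The ratio of both chains needs no denominator. FTH1 counts per FTL count were 19.4 (18.9 to 19.9) in RARRES2-high, 3.79 (3.73 to 3.86) in ERBB2-high and 1.52 (1.498 to 1.547) in FOLR1-high. Per kilobase of the leading transcripts, which are 1229 bases long for FTH1 and 878 for FTL, the ratios of FTH1 to FTL were 13.9, 2.71 and 1.09. Whether a count rises with transcript length in these long reads was not tested. The values per kilobase are therefore a second scale and not a correction of the counts. The heavy to light ratio was therefore 12.7-fold higher in RARRES2-high than in FOLR1-high and 5.11-fold higher than in ERBB2-high.

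The medians over barcodes followed the same order, with overlap between the classes. The FTL share of all ferritin counts had a median of 4.88% over RARRES2-high barcodes, with the 5th percentile at 0.899% and the 95th at 17.6%. The median was 20.2% (5th to 95th percentile 8.05% to 38.8%) over ERBB2-high barcodes and 44.6% (17.9% to 66.7%) over FOLR1-high barcodes. The distributions of ERBB2-high and FOLR1-high overlapped broadly, and RARRES2-high overlapped least with FOLR1-high: 95.3% of RARRES2-high barcodes lay below the 5th percentile of FOLR1-high, 73.6% below that of ERBB2-high, and 38.0% of ERBB2-high barcodes lay below the 5th percentile of FOLR1-high. FTL counts exceeded FTH1 counts in 279 of 765 FOLR1-high barcodes, 7 of 648 ERBB2-high barcodes and 0 of 473 RARRES2-high barcodes. FTH1 was seen in every assigned barcode, and FTL was missing from 10 RARRES2-high and 2 ERBB2-high barcodes. Barcodes of 1 class share a library and are not replicates of a line.

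**Figure D2:**
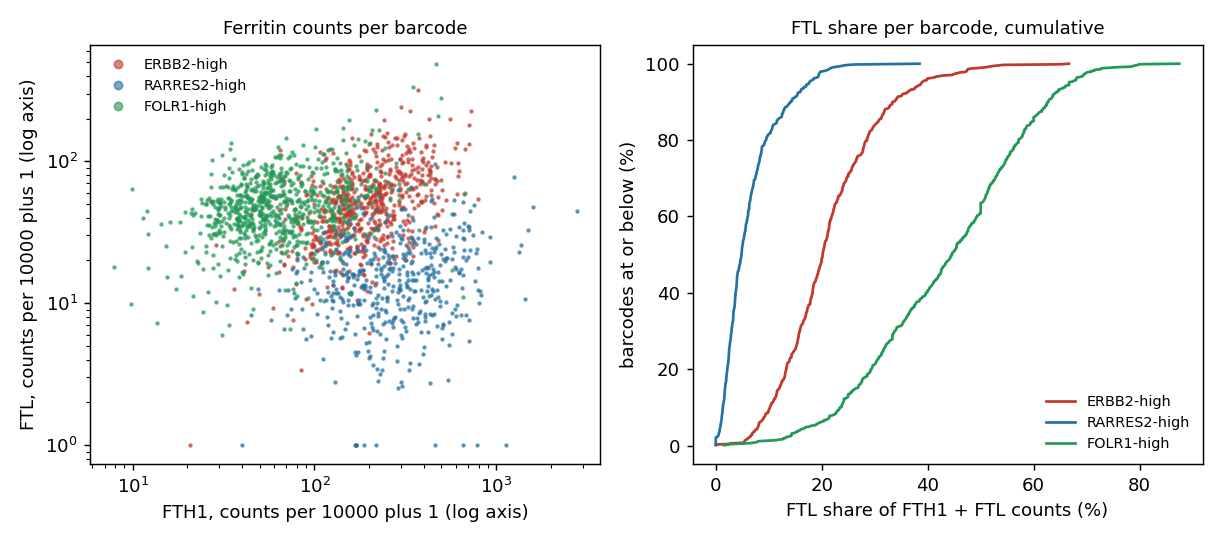
Left, FTL against FTH1 in each barcode (counts per 10000 plus 1, log axes); right, the cumulative share of barcodes (%) by FTL share of FTH1 and FTL counts (%). Colours mark the 3 line classes; the curves are ordered RARRES2-high, ERBB2-high, FOLR1-high, with medians of 4.88%, 20.2% and 44.6%.

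Within a class, both chains varied widely and together only in part. FTH1 ran from 38.8 to 2792 counts per 10000 over RARRES2-high barcodes (median 266), from 19.7 to 790 over ERBB2-high (median 191) and from 6.85 to 671 over FOLR1-high (median 56.3). Pearson's r of FTH1 with FTL over barcodes (log of counts per 10000 plus 1) was 0.49 in ERBB2-high, 0.31 in FOLR1-high and 0.13 in RARRES2-high. These are descriptions over barcodes that share a library and a depth range. Among 594 genes with at least 1 count per barcode on average in every class, FTH1 was most alike S100A6 (mean r 0.34), a calcium-binding protein, TMSB4X (0.33), an actin-binding peptide, and FTL (0.31). The order differed by class: r with FTL, S100A6 and TMSB4X was 0.49, 0.22 and 0.12 in ERBB2-high, 0.13, 0.52 and 0.37 in RARRES2-high, and 0.31, 0.28 and 0.50 in FOLR1-high. FTL was most alike FTH1 (0.31), SERF2 (0.25) and GPX4 (0.22), the glutathione peroxidase that reduces lipid peroxides. All of these are abundant mRNAs, and the weaker values are no finding in counts this sparse.

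The ferritin balance also differed within FOLR1-high. FTL made up 44.3% (43.7% to 45.0%) of ferritin counts in the 383 barcodes with the higher mitochondrial share and 36.9% (36.4% to 37.4%) in the other 382. FTH1 stood at 6233 CPM in the first and 9980 CPM in the second, while FTL stood at 4961 and 5834 CPM. LCN2 stood at 0.974 and 12.6 CPM, from 2 and 31 counts, and TFRC at 23.4 and 38.6 CPM. FTH1, LCN2 and TFRC were all highest in RARRES2-high, and whether RNA of that class entered this split was not tested. In ERBB2-high the FTL share was 20.7% and 21.0% in the corresponding groups, and in RARRES2-high 4.86% and 4.94%. Among FOLR1-high barcodes with at least 4 counts of CXCL14 and DEFB1 together, those in which CXCL14 held at least 75% (181 barcodes) had an FTL share of 46.7%, against 36.3% where it held at most 25% (62 barcodes). FTL made up 38.8% of ferritin counts in the FOLR1-high barcodes with more counts and 41.9% in those with fewer. In ERBB2-high the split by counts went the other way, at 21.5% (21.2% to 21.9%) with more and 19.7% (19.3% to 20.2%) with fewer, and in RARRES2-high the shares were 4.90% and 4.91%. Median totals were 4791 and 5738 counts in the groups by mitochondrial share, and 4939 and 6560 in the CXCL14 and DEFB1 groups.

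NCOA4, the receptor that carries ferritin to the lysosome for breakdown, followed neither chain. It stood at 105 CPM (94.1 to 116) in ERBB2-high from 360 counts, 65.4 CPM (57.1 to 74.6) in RARRES2-high from 221 and 47.6 CPM (41.5 to 54.4) in FOLR1-high from 215. The only pair past 2-fold was ERBB2-high over FOLR1-high, at 2.20-fold (1.85 to 2.61), which became 1.71-fold without mitochondrial and ribosomal protein genes and 1.60-fold when centred. After thinning to 2000 counts, the 1.60-fold difference between ERBB2-high and RARRES2-high became 2.26-fold in 1 draw. At that depth NCOA4 was seen in 20.6% (17.5% to 24.1%) of 606 ERBB2-high barcodes, 9.48% (6.92% to 12.6%) of 443 RARRES2-high barcodes and 9.82% (7.77% to 12.2%) of 733 FOLR1-high barcodes. Thinned to 1000 counts, NCOA4 stood at 94.1, 61.3 and 44.4 CPM in ERBB2-high, RARRES2-high and FOLR1-high and was seen in 8.64%, 5.92% and 4.05% of barcodes. At 2000 counts RARRES2-high and FOLR1-high stood at 51.9 and 51.8 CPM, and the pooled counts put RARRES2-high 1.37-fold (1.13 to 1.67) higher. RARRES2-high was thus equal to or above FOLR1-high in CPM, while the order of the shares of barcodes differed between the depths.

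TFRC, the transferrin receptor that takes up iron-loaded transferrin, was highest where FTH1 was highest. It stood at 120 CPM (108 to 132) in RARRES2-high from 404 counts, 55.8 CPM (48.2 to 64.2) in ERBB2-high from 192 and 31.7 CPM (26.7 to 37.3) in FOLR1-high from 143. None of the intervals overlapped. RARRES2-high exceeded FOLR1-high 3.78-fold (3.113 to 4.602) and ERBB2-high 2.14-fold (1.80 to 2.56). ERBB2-high exceeded FOLR1-high 1.76-fold, or 1.28-fold when centred on the median gene. Thinned to 2000 counts, TFRC was seen in 22.8% (18.97% to 26.99%) of RARRES2-high barcodes, 9.90% (7.64% to 12.6%) of ERBB2-high barcodes and 4.37% (3.005% to 6.107%) of FOLR1-high barcodes. Thinned to 1000 counts, TFRC in ERBB2-high was 0.587 (0.387 to 0.884) of its level in RARRES2-high. That is short of the 2-fold limit and rests on 45 and 56 counts. Its counts were spread thinly: no RARRES2-high barcode held more than 6, and 233 of 473 held any.

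SLC39A14, a zinc transporter family member that also imports iron not bound to transferrin, was highest in ERBB2-high. It stood at 27.6 CPM (22.3 to 33.7) there from 95 counts, 14.6 CPM (11.3 to 18.6) in FOLR1-high from 66 and 10.95 CPM (7.71 to 15.1) in RARRES2-high from 37. The intervals of FOLR1-high and RARRES2-high overlapped. ERBB2-high exceeded RARRES2-high 2.52-fold (1.71 to 3.79) and FOLR1-high 1.89-fold (1.36 to 2.63). The latter passed 2-fold under 2 alternatives, at 2.15-fold as a mean over barcodes and 2.30-fold after thinning, and became 1.37-fold when centred on the median gene.

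SLC40A1, which encodes ferroportin, the exporter of iron from cells, was barely detected. It had 9 counts in FOLR1-high (1.99 CPM, 0.911 to 3.78), 1 in RARRES2-high (0.296 CPM, 0.00749 to 1.65) and 0 in ERBB2-high, where 3 counts would be 0.871 CPM. All 10 counts fell on its single listed transcript, ENST00000261024, which holds the hairpin shown above. No ratio is given at this depth.

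The genes of the iron-sensing proteins were among the most even of the list. ACO1, the cytosolic aconitase that binds the hairpins when it has lost its iron-sulfur cluster, stood at 41.2 CPM (35.5 to 47.6) in FOLR1-high, 36.4 CPM (30.3 to 43.4) in RARRES2-high and 35.7 CPM (29.7 to 42.6) in ERBB2-high. These intervals overlapped throughout, and 97.7% of all genes compared had a larger spread over the classes. IREB2, its relative that is degraded when iron is plentiful, stood at 41.0 CPM (34.5 to 48.3) in ERBB2-high, 33.5 CPM (27.6 to 40.2) in RARRES2-high and 25.7 CPM (21.2 to 30.8) in FOLR1-high. ERBB2-high exceeded FOLR1-high 1.59-fold (1.24 to 2.06), and the neighbouring classes in this order had overlapping intervals. Centred on the median gene, the ERBB2-high to FOLR1-high ratios were 1.16-fold for IREB2, higher in ERBB2-high, and 1.58-fold for ACO1, higher in FOLR1-high.

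HMOX1, the inducible enzyme that frees iron from haem, was low in every class. It stood at 13.1 CPM (9.54 to 17.5) in ERBB2-high from 45 counts, 9.75 CPM (7.08 to 13.1) in FOLR1-high from 44 and 9.47 CPM (6.48 to 13.4) in RARRES2-high from 32. All 3 intervals of the pooled counts overlapped. In RARRES2-high a single barcode held 7 of the 32 counts, and the class stood at 7.41 CPM without it. The mean of CPM over barcodes, which gives barcodes with few counts more weight, put RARRES2-high 2.09-fold above FOLR1-high where the pooled counts gave a ratio of 0.972. In RARRES2-high, HMOX1 stood at 21.1 CPM in the barcodes with fewer counts and 4.94 CPM in those with more. The same split gave 4.25 and 12.2 CPM in FOLR1-high and 11.8 and 13.7 CPM in ERBB2-high. Thinned to 2000 counts a barcode, the levels were 16.5, 15.8 and 6.82 CPM in ERBB2-high, RARRES2-high and FOLR1-high. FOLR1-high was then 2.42-fold (1.08 to 5.79) below ERBB2-high and 2.32-fold (0.957 to 5.83) below RARRES2-high, from 44 counts in all, too few for the 50-count minimum.

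LCN2, a secreted lipocalin that binds iron-carrying siderophores, had the largest spread of the 9 genes and came from few barcodes. It stood at 237 CPM (221 to 254) in RARRES2-high from 801 counts, 19.5 CPM (15.1 to 24.7) in ERBB2-high from 67 and 7.31 CPM (5.03 to 10.3) in FOLR1-high from 33. RARRES2-high exceeded ERBB2-high 12.2-fold (9.49 to 15.9) and FOLR1-high 32.4-fold (22.9 to 47.5), and 5.41% of all genes compared had a larger spread. In RARRES2-high, 364 of 473 barcodes had no LCN2 count, 30 had at least 5, the highest had 107, and the 48 highest barcodes held 90.6% of the counts. TFRC in the same barcodes was less concentrated, with 39.6% of its counts in its 48 highest. The variance over the mean of counts per barcode was 44.8 for LCN2 and 1.44 for TFRC.

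**Figure D3:**
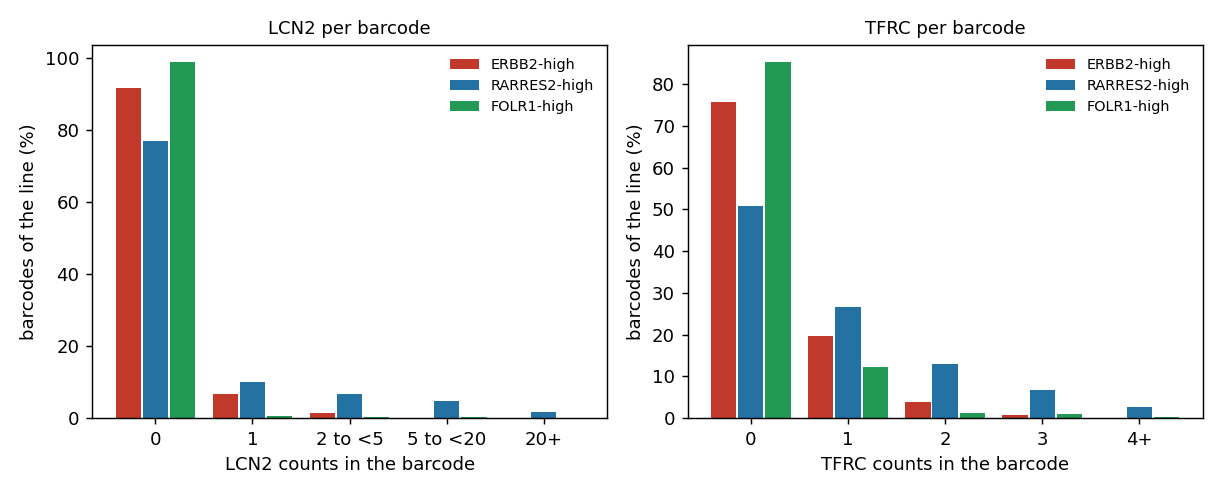
Share of barcodes (%) of each line class by the number of LCN2 counts (left) and TFRC counts (right) in the barcode. LCN2 was absent from 364 of 473 RARRES2-high barcodes, 594 of 648 ERBB2-high and 756 of 765 FOLR1-high, with a tail of 20 or more counts in RARRES2-high, while TFRC was absent from 240, 491 and 652 and had short tails.

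LCN2 varied over RARRES2-high barcodes together with a few other genes. Over the 473 barcodes and 4567 genes with at least 0.2 counts per barcode, the genes most alike LCN2 were the protease inhibitor SLPI (r 0.48), WFDC2, which encodes the ovarian tumour antigen HE4 (0.47), the tight junction gene CLDN7 (0.45), the adherens junction gene CDH1 (0.44) and C9orf16 (0.39); these 5 were looked up after the LCN2 values were seen. LCN2 had r of 0.29 with FTH1, 0.03 with TFRC and -0.06 with FTL. Depth moved with it: LCN2 stood at 279 CPM in the RARRES2-high barcodes with more counts (median 9134) and 131 CPM in those with fewer (median 4222), and the part of depth was not tested.

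The level of LCN2 depended on which barcodes the marker rule admitted. Its r with CLDN3, a marker of FOLR1-high, was 0.29 within RARRES2-high. The rule itself limits CLDN3 in that class, so this r is a description only. Of the 208 barcodes left out because they mixed markers, 109 had most marker counts from the RARRES2 set, and these held LCN2 at 286 CPM (252 to 324), FTH1 at 38980 CPM, FTL at 1782 CPM and CLDN3 at 290 CPM. The rule left these barcodes out for their counts of the other sets, which include CLDN3, so their CLDN3 level is no separate result. At a marker share of 90%, LCN2 in RARRES2-high was 82.4 CPM, and with CLDN3 dropped from the markers it was 255 CPM. Without CLDN3, LCN2 in FOLR1-high was 2.42 CPM from 10 counts over 696 barcodes, against 33 counts with it. Of those 33 counts, 21 lay in 2 barcodes. The FTL share of ferritin counts moved little with CLDN3 dropped, to 4.67% in RARRES2-high, 20.9% in ERBB2-high and 40.5% in FOLR1-high.

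Free RNA from one line can be caught with cells of another. LCN2 in ERBB2-high was 8.21% of its level in RARRES2-high, and in FOLR1-high 3.08%. The 10 genes most particular to RARRES2-high outside the markers had a median of 0.540% of their level in ERBB2-high (highest 5.15%) and 0.571% in FOLR1-high (highest 1.45%). Those genes were chosen for low levels in the other classes, so they set no limit for LCN2, and the part of such RNA in the LCN2 values was not tested. With CLDN3 dropped from the markers, LCN2 in FOLR1-high was 0.9501% of its level in RARRES2-high. Thinned to 2000 counts, it was seen in 13.5% (10.5% to 17.1%) of RARRES2-high, 3.96% (2.55% to 5.84%) of ERBB2-high and 0.546% (0.149% to 1.39%) of FOLR1-high barcodes.

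Long reads also give the transcript behind each count. None of the genes differed in the share of a transcript by 20 percentage points between classes: 0 of 6 compared between ERBB2-high and RARRES2-high, where 2.45% of 4237 genes did, 0 of 6 between ERBB2-high and FOLR1-high (2.21% of 4471), and 0 of 5 between RARRES2-high and FOLR1-high (3.26% of 4115). At a limit of 10 points with no other setting changed, the count of genes was also 0 in each, where 12.7%, 12.1% and 15.3% of all genes passed. The nearest were TFRC at 9.71 points between RARRES2-high and FOLR1-high and ACO1 at 9.71 points between ERBB2-high and RARRES2-high. Some genes passed 10 points under other settings, where all genes were not counted at that limit. Between ERBB2-high and RARRES2-high, NCOA4 reached 15.8 points with only whole matrix entries and ACO1 12.6 at a marker share of 90%. Between RARRES2-high and FOLR1-high, TFRC reached 10.4 points with at least 4 marker counts. Many counts were split between transcripts, so these shares rest on the authors' estimate: 29.1% of the counts of the main TFRC transcript and 31.5% of the main NCOA4 transcript were whole.

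The ferritin genes each had 1 main transcript. The authors' estimate put 99.8% of FTH1 counts on ENST00000273550 (chr11:61964285-61967660, 4 exons), though only 1.15% of the counts of that transcript were whole, and FTL has the single listed transcript ENST00000331825 (chr19:48965301-48966878, 4 exons). FTH1 overlaps BEST1 on the opposite strand over 5798 bases, and BEST1 had 137 counts beside 270987 of FTH1 over all barcodes. Processed copies took almost no counts: 25 entries named FTH1P held 55 counts over all barcodes, and 14 named FTLP held 0. The files do not say how reads matching several copies were placed.

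TFRC counts were split between ENST00000360110, with 67.0% (63.5% to 70.4%), and ENST00000420415, with 30.7% (27.4% to 34.2%), which lacks the 202-base coding exon at chr3:196075159-196075360. Both carry the 4 hairpins shown above. The share of ENST00000360110 was 71.1% (66.3% to 75.4%) in RARRES2-high, 62.6% (55.2% to 69.4%) in ERBB2-high and 61.4% (53.0% to 69.5%) in FOLR1-high, with overlapping intervals.

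NCOA4 was split between ENST00000581486, with 53.8% (50.2% to 57.3%), and ENST00000585132, with 38.3% (34.9% to 41.8%). They differ in an untranslated first exon, at chr10:46030526-46030714 and chr10:46023330-46023455, and code for 1842 bases alike. IREB2 was read as the full ENST00000258886, of 22 exons, for 85.5% (81.7% to 89.1%) of its counts and as ENST00000560440, which ends in its own 3459-base exon 8 at chr15:78473242-78476700, for 14.5% (10.9% to 18.3%). The short form's share was 14.2% to 15.1% in the 3 classes. ACO1 was led by ENST00000309951, with 69.1% (64.4% to 73.3%), whose last exon at chr9:32449998-32454769 is longer than those of ENST00000379923 (16.2%) and ENST00000541043 (14.7%), all with a coding length of 2667 bases. LCN2 had 99.7% of its counts on ENST00000277480, and HMOX1 has 1 listed transcript.

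SLC39A14 is spliced with either of a pair of 170-base versions of exon 4, which code for different stretches of the transporter. ENST00000381237, with one version, held 53.0% (45.8% to 60.1%) of its counts and ENST00000359741, with the other, 42.4% (35.4% to 49.6%). Only 17.2% and 13.1% of these counts were whole. The largest share difference, between ERBB2-high and FOLR1-high, was 3.42 points, near the median of 3.17 points over all genes compared, and RARRES2-high had too few counts to be compared.

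**Figure D4:**
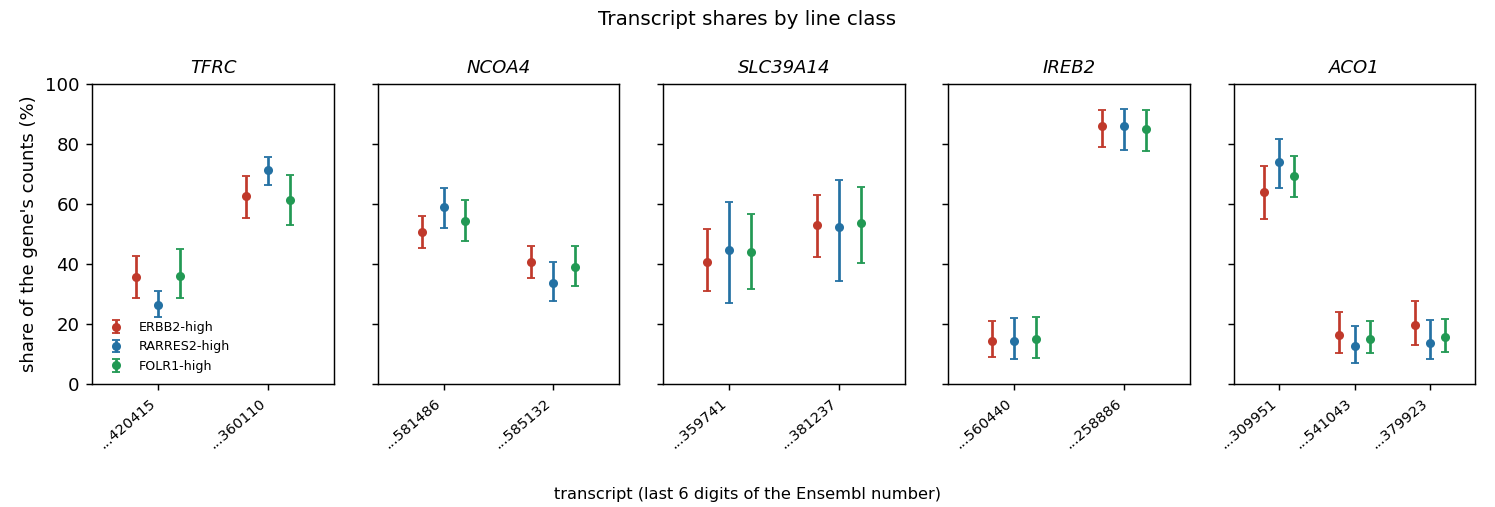
Share of a gene's counts (%) on each transcript that reached 10% in some line class, for 5 genes, with exact binomial intervals; transcripts are named by the last 6 digits of their Ensembl numbers. Within a gene the intervals of the 3 classes overlap, with TFRC ENST00000360110 at 71.1%, 62.6% and 61.4% in RARRES2-high, ERBB2-high and FOLR1-high.

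The wider iron pathway was described from a list of 64 genes, of which 45 could be compared, 14 had under 50 counts and 5 lay in entries joining several genes. Between ERBB2-high and RARRES2-high, 11 were at least 2-fold higher in ERBB2-high and 3 in RARRES2-high, 31.1% of the 45 against 35.7% of all genes. Between ERBB2-high and FOLR1-high, 12 were higher in ERBB2-high and 0 in FOLR1-high, 26.7% against 37.1%. Between RARRES2-high and FOLR1-high, 5 were higher in RARRES2-high and 3 in FOLR1-high, 17.8% against 36.6%. The splits depend on the scale: centred on the median gene they became 7 and 6, 5 and 4, and 5 and 4. The centred shares of all genes were 16.6% and 17.2%, 15.7% and 16.2%, and 18.3% and 17.2%, in the same order.

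Of 4 compared genes of uptake and reduction, 2 passed 2-fold between ERBB2-high and RARRES2-high, 2 between ERBB2-high and FOLR1-high and 1 between RARRES2-high and FOLR1-high, where 35.7%, 37.1% and 36.6% of all genes did. CYBRD1, a ferric reductase of the cell surface, stood at 80.5 CPM in RARRES2-high, 15.7 in ERBB2-high and 0.886 in FOLR1-high, so that the class with the most TFRC also had the most CYBRD1. SLC39A8, a metal importer related to SLC39A14, stood at 77.3 CPM in ERBB2-high, 30.6 in FOLR1-high and 24.3 in RARRES2-high, the same order as SLC39A14. Its 2.53-fold difference between ERBB2-high and FOLR1-high became 1.84-fold when centred. CP, the ferroxidase ceruloplasmin and the only compared gene of export and oxidation, stood at 60.1 CPM in ERBB2-high, 24.1 in FOLR1-high and 13.9 in RARRES2-high. Its 2.49-fold difference between ERBB2-high and FOLR1-high became 1.81-fold when centred. SLC11A2, the importer DMT1, stood between 14.4 and 17.4 CPM, and none of its 8 listed transcripts matched the strict pattern searched, which does not show that they lack an iron-responsive element. HAMP, HEPH, TFR2 and FTMT had 0 counts in every class.

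Of 9 compared genes of redox defence and ferroptosis, 3 were at least 2-fold higher in ERBB2-high than in RARRES2-high and 0 lower, and 5 were higher than in FOLR1-high and 0 lower, where 35.7% and 37.1% of all genes passed in either direction. By direction, 22.2% of all genes were higher in ERBB2-high than in RARRES2-high and 13.5% lower. Against FOLR1-high, 27.3% were higher in ERBB2-high and 9.79% lower. Between RARRES2-high and FOLR1-high, 2 were higher in RARRES2-high (22.7% of all genes) and 1 in FOLR1-high (13.8%), where 36.6% of all genes passed. Centred on the median gene, GCLC and ACSL4 no longer passed between ERBB2-high and FOLR1-high. This left 3 of the 5, where 15.7% of all genes were higher in ERBB2-high. KEAP1 then passed as higher in RARRES2-high than in ERBB2-high, as did 17.2% of all genes. The 4 described next, other than GPX4, were named because they passed in at least 2 pairs. SLC7A11, the cystine importer, stood at 260 CPM in ERBB2-high, 52.3 in FOLR1-high and 7.40 in RARRES2-high. NQO1, a quinone reductase, stood at 593, 137 and 252 CPM in ERBB2-high, FOLR1-high and RARRES2-high. GCLC, a subunit of the enzyme that starts glutathione synthesis, stood at 27.6, 11.3 and 9.77 CPM, and its 2.44-fold difference between ERBB2-high and FOLR1-high became 1.78-fold when centred. AIFM2, which protects membranes from lipid peroxidation, had 51 counts in ERBB2-high, 75 in RARRES2-high and 2 in FOLR1-high. GPX4, for comparison, was within 2-fold throughout, at 1276, 736 and 778 CPM in ERBB2-high, RARRES2-high and FOLR1-high.

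Of the remaining genes past 2-fold in at least 2 pairs, HIF1A, the oxygen-regulated transcription factor subunit, stood at 515 CPM in ERBB2-high, 99.4 in FOLR1-high and 65.7 in RARRES2-high. BOLA3, an assembly factor of mitochondrial iron-sulfur clusters, stood at 301 CPM in RARRES2-high, 134 in ERBB2-high and 121 in FOLR1-high. HSCB, a co-chaperone of the same pathway, stood at 22.9 CPM in ERBB2-high, 9.97 in FOLR1-high and 8.29 in RARRES2-high, and its 2.30-fold difference between ERBB2-high and FOLR1-high became 1.68-fold when centred. ALAD, an enzyme of haem synthesis, stood at 12.8 CPM in FOLR1-high, 10.7 in ERBB2-high and 5.03 in RARRES2-high from 17 counts, and its 2.14-fold difference between ERBB2-high and RARRES2-high became 1.83-fold when centred. FBXL5, past 2-fold in 1 pair and named here after its value was seen, is the ubiquitin ligase subunit that marks the IREB2 protein for breakdown when iron is plentiful. It stood at 46.8 CPM in ERBB2-high, 36.5 in FOLR1-high and 21.9 in RARRES2-high, and its 2.13-fold difference between ERBB2-high and RARRES2-high became 1.83-fold when centred.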

How the data were processed

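The authors deposited a sparse matrix of estimated counts per transcript and cell barcode, a list of transcripts and a list of barcodes for the nanopore library, and a list of barcodes for the Illumina library. Cell Ranger 6.0.1 and the build GRCh38 are named in the submitters' processing notes; for the aligner, the annotation release, the strand setting and the collapse of molecular identifiers, nothing is given in the sources used here. Intervals cover counting error only and treat each count as an independent molecule. If identifiers were not collapsed, they are too narrow even for that. Whole values within 1e-06 made up 39.8% of the 8294569 matrix entries. Sums over each gene in each barcode were whole in 100%, at a wider tolerance. The 13052893 counts were summed per gene entry, and 11335374 lay in the 1886 assigned barcodes. Of the others, 333 had under 1000 counts, 208 mixed markers and 35 had none.

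Poisson intervals of counts, Clopper-Pearson intervals of shares and conditional intervals of ratios were exact at 95% (scipy 1.17.1); a class at 0 took a floor of 3 counts. Doublets were left to the marker rule; Scrublet in scanpy 1.11.5 (expected rate 0.02), used as an alternative, called 77 of 2462. Alternatives covered barcode, marker, denominator, thinning, fold and transcript limits; those with 4 marker counts, without CLDN3 and centred on the median gene were chosen after seeing the data. Named were all 10 genes, pathway genes past 2-fold in 2 of 3 pairs (up to 12), transcripts with a share of 10%, and the 3 genes most alike each ferritin; other pathway genes named were chosen after their values were seen. The genes and lists were chosen with earlier results of these data known.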

Additional observations from a re-analysis of the deposited data

How the results depend on the processing

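No paired analysis was possible because the study has 1 library per platform. No direction of a called value was reversed under any alternative run. Of the 9 genes compared, the number past the fold between ERBB2-high and FOLR1-high moved from 3 to 1 without mitochondrial and ribosomal protein genes in the denominator, to 5 as a mean of CPM over barcodes, to 5 of the 8 that kept 50 counts after thinning to 2000 counts (HMOX1 did not), to 0 when centred on the median gene, to 6 at a fold of 1.5 and to 0 at a fold of 3. Between ERBB2-high and RARRES2-high it moved from 4 to 2 at a fold of 3. The other 35 of 42 alternatives kept these numbers within 1.5 times. All 30 for transcript use gave 0, at a limit of 20 points unless the limit was the setting changed. Single values moved more often: 56 of 297 log2 ratios, 58 of 270 CPM values and 20 of 30 shares of barcodes at equal depth. TFRC between ERBB2-high and FOLR1-high passed 2-fold as a mean over barcodes (2.06) and after thinning (2.04), and LCN2 fell below it when centred (1.94). Other alternatives raised this LCN2 ratio. It was 5.24-fold (2.11 to 15.6) after thinning to 2000 counts, from 26 and 6 counts. Without CLDN3 the LCN2 levels were 22.1 CPM in ERBB2-high and 2.42 CPM in FOLR1-high. Counts under about 50 in a class, as for SLC40A1, HMOX1 and SLC39A14, limit what can be told apart, and 1 library gives no measure of how a line varies.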
